A study of Mus musculus with 8 samples.

Results

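The 9 genes described here belong to the BCL2 family and were found by symbol and Entrez identifier among 36528 identifiers listed for each library. Bcl2, Mcl1, Bcl2l1, Bcl2l2, Bcl2a1b and Bcl2l10 encode survival proteins. Bax, Bak1 and Bok encode effectors that can form pores in the outer mitochondrial membrane. The rule that lists them is membership of the family and uses no measured value, although earlier results of these data were known when it was set.

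Primary mesothelial cells were the source of the polyadenylated RNA, with the mouse omentum, a fold of peritoneum that hangs from the stomach, as the tissue. There were 4 libraries of the genotype WT and 4 of the genotype BAP1 KO, a knockout of the nuclear deubiquitinase BAP1, which is a tumour suppressor in mesothelioma. The labels name no strain, age, deleting agent or treatment. Nor do they say if libraries of 1 genotype are separate animals or cultures. The p-values thus set each difference against the spread among these 8 libraries, and that spread may be technical. The common coefficient of variation between libraries of a genotype, as fitted by edgeR, was 0.0291. The question the design poses is which RNAs differ between the genotypes BAP1 KO and WT.

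Survival proteins of this family bind the effectors and the BH3-only proteins that activate them, and so keep the outer mitochondrial membrane closed. When the effectors BAX and BAK oligomerize, the membrane opens, cytochrome c leaves the mitochondrion and caspases are activated. Cells often depend on one survival protein more than on the others, and MCL1 in particular turns over fast, so its amount is also set by protein degradation that RNA counts do not show.

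Libraries held 67.1 to 84.9 M counts. The targeted gene Bap1 stood at 62.6 to 64.2 CPM (counts per M of the adjusted library total) in WT and at 52.0 to 54.0 CPM in BAP1 KO, with a mean at 84.2% of WT. A count per gene cannot tell a deleted exon from the others, so these counts do not show the loss of BAP1. Markers of several cell types were present. Of the mesothelial markers, WT had Upk3b at 462 CPM and Wt1 at 121 CPM, but Msln at 6.95 CPM and Krt19 at 3.19 CPM. Of the 10 mesothelial markers, 5 fell, including Msln (-1.19 ± 0.07 on the log2 scale), Krt8 (-1.56 ± 0.13) and Krt18 (-1.38 ± 0.07). The 3 that rose were Cldn15 (0.81 ± 0.03), Wt1 (0.45 ± 0.02) and Upk1b (0.13 ± 0.02), and the list summed to 1149 to 1177 CPM in WT and 1209 to 1219 CPM in BAP1 KO. Of the 12 macrophage markers, 5 rose and 6 fell, with a median log2 fold change of -0.03. Their sum was 15118 to 15448 CPM (WT) against 17452 to 18015 CPM (BAP1 KO). Most of that sum was Lyz2 alone, whose mean went from 8388 to 11027 CPM. The higher sum thus rests on Lyz2 and does not describe the markers as a set. The 7 fibroblast markers summed to 19524 to 20881 CPM in WT and 15541 to 16125 CPM in BAP1 KO, and all 7 fell. Of 5 endothelial markers, 4 fell, with a median log2 fold change of -0.70 and sums of 28.8 to 29.7 CPM in WT and 18.4 to 19.5 CPM in BAP1 KO. Of 4 tested adipocyte markers, 3 rose and 1 fell, with a median of 0.83. That list summed to 60.6 to 63.9 CPM in WT and 52.8 to 56.0 CPM in BAP1 KO. Of 5 smooth muscle and pericyte markers, 2 rose and 1 fell, with sums of 7137 to 7485 CPM in WT and 7582 to 7701 CPM in BAP1 KO. Lymphocyte markers summed to at most 5.19 CPM in any library, and Cd3e and Cd8a were below 1 CPM in every library. In such bulk RNA, fewer cells of a type and less RNA per cell cannot be told apart. The part of other cell types in the values below was not tested.

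Of the 9 genes, 8 had enough counts to be tested, and 7 of these passed the test at an adjusted p below 0.05. Bcl2, Mcl1, Bcl2l1, Bcl2l2 and Bcl2a1b passed among the survival genes, and Bax and Bok among the effectors. Among all 16929 genes tested, 61.1% passed. Of the 8 genes 5 rose, where 29% of all tested genes did, and 2 fell, where 32.1% did. Passing the test was thus common in this comparison. The groups did not overlap for 6 of the 8, where the share over all tested genes was 53.8%. The median log2 fold change (BAP1 KO minus WT) of the 8 genes was 0.095, and that of all genes tested was -0.0046. The changes fall into 2 sizes. Bcl2 and Bcl2a1b fell by more than 1.5-fold, and 14.8% of all tested genes passed with a change of at least that size. The 5 genes that rose did so by 1.07-fold to 1.17-fold. A stricter test, called the test against 25%, was against a rise of 25% or a fall of the same size on the log2 scale. In it, Bcl2 and Bcl2a1b alone passed of the 8, where 18.4% of all tested genes did. Without that stricter test, 27.4% of all tested genes passed with a fitted change of at least that size, as the same pair did.

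**Figure D1:**
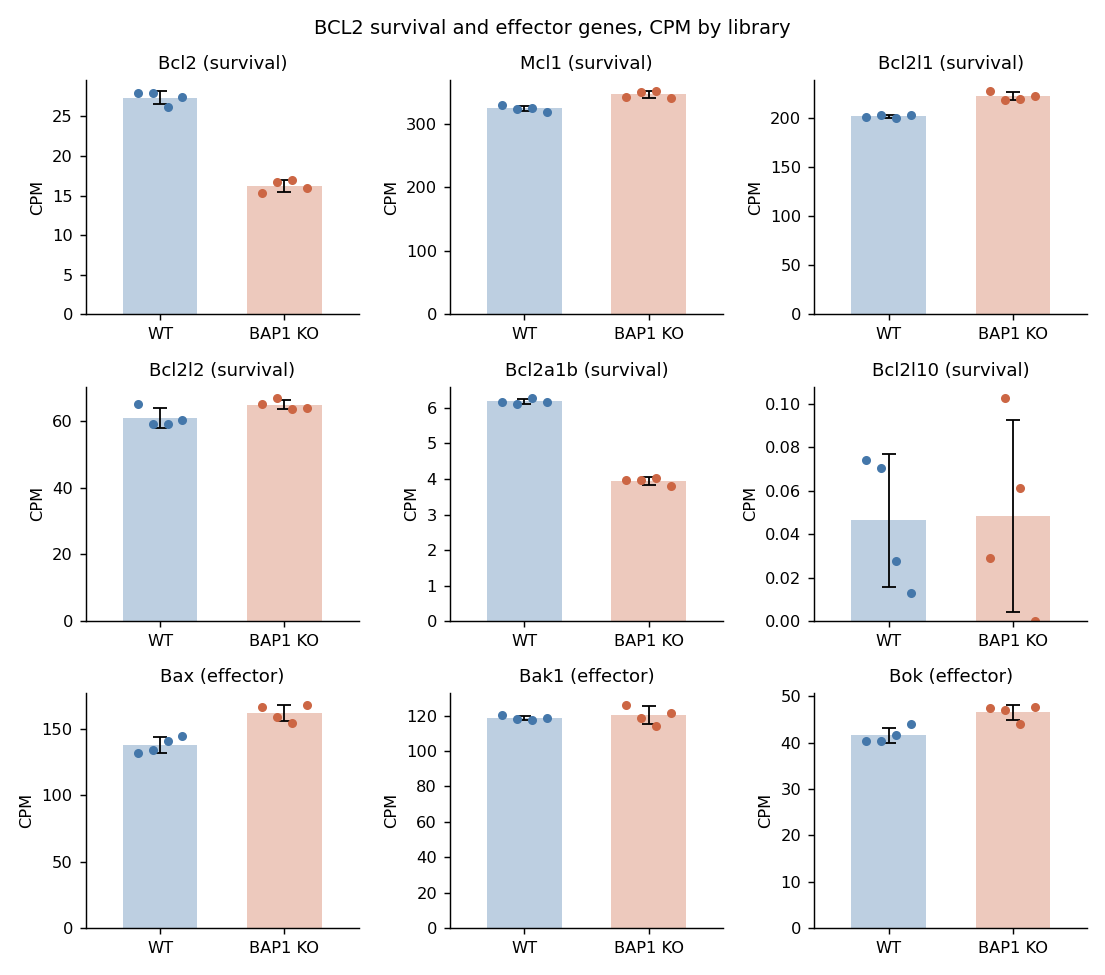
CPM of the 9 genes in each library. Points are libraries, bars are means of 4 libraries per genotype and error bars are SD. Bcl2 and Bcl2a1b lay lower in all 4 BAP1 KO libraries, Mcl1, Bcl2l1, Bax and Bok lay slightly higher in all 4, and Bcl2l2, Bak1 and Bcl2l10 overlapped.

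The sequences upstream of the genes differ widely in CG dinucleotides, the sites of DNA methylation and the basis of CpG islands, which Polycomb complexes often occupy. The 250 bases before the start site, from RefSeq on GRCm38.p6, are shown for the 2 genes that fell and for 2 that rose, the most abundant survival gene and the effector with the larger change of the pair that rose. CG dinucleotides are in capitals and each sequence reads 5′ to 3′ on the strand of its gene. Bcl2 lies on the minus strand (chr1:106714291-106714540), Mcl1 on the plus strand (chr3:95658471-95658720), Bax on the minus strand (chr7:45466899-45467148) and Bcl2a1b on the plus strand (chr9:89199023-89199272).
Bcl2: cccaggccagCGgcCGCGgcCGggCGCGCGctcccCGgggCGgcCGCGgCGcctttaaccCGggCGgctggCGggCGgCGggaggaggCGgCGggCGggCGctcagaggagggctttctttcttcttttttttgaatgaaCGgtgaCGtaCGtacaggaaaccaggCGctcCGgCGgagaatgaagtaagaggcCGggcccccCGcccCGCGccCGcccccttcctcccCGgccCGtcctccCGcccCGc
Mcl1: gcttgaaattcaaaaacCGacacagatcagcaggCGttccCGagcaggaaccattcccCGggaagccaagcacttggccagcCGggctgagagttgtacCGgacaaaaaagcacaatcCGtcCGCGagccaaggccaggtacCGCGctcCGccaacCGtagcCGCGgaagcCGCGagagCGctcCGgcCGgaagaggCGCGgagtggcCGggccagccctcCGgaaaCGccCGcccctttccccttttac
Bax: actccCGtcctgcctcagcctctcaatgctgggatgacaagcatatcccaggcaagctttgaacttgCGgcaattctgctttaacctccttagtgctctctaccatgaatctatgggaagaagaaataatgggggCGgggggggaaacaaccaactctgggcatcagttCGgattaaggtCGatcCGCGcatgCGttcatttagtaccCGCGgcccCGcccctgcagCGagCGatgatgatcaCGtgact
Bcl2a1b: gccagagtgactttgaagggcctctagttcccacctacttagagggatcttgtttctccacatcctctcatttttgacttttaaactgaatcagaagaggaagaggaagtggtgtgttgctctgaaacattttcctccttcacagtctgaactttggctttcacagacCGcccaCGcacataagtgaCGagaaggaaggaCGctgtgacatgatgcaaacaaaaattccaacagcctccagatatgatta
The window of Bcl2 holds 36 CG dinucleotides, a number that 2.58% of the 32851 windows of all genes in the table reach. Mcl1 holds 26, reached by 9.59% of windows, Bax 14, reached by 29.4%, and Bcl2a1b 4, reached by 62.2%. The 2 genes that fell thus carry the highest and one of the lowest numbers among the members. Bok holds 12, Bcl2l2 9 and Bak1 8. Bcl2l1 has 3 windows, one for each start site in the table, with 0, 11 and 12. A window was matched for 8 of the 9 genes, all but Bcl2l10. Chromatin was not measured here, so the counts of CG describe the sequences only.

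Bcl2, the founding member of the family and an inhibitor of mitochondrial apoptosis, had the largest change of the members. Bcl2 (Entrez 12043) spans chromosome 1, 106538176 to 106714290, on GRCm38. It stood at 27.96, 27.97, 26.19 and 27.40 CPM in the WT libraries and at 15.31, 16.75, 16.92 and 15.97 CPM in the BAP1 KO libraries. All 4 BAP1 KO libraries lay below all 4 WT libraries, with a gap far wider than the spread within a genotype. The mean fell from 27.4 ± 0.84 to 16.2 ± 0.75 CPM (SD, n = 4 each), to 59.3% of WT. The log2 fold change was -0.75 ± 0.04 (SE), with an edgeR adjusted p of 1.5e-16. An exact two-sided permutation test on CPM gave p = 0.029, the lowest value possible with 4 libraries a side. Each value rests on 1060 to 2377 counts. Of all tested genes, 10.7% had a larger change in either direction. Its exons overlap those of D630008O14Rik, an antisense transcript, over 558 bases, 6.09% of its exon bases. The library kit does not mark the strand, so reads from the shared bases cannot be assigned to one of them.

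Mcl1, a survival protein of short half-life that binds BAK and BH3-only proteins, rose by a small amount. Mcl1 (Entrez 17210) spans chromosome 3, 95656944 to 95663179. It stood at 328.8, 323.5, 323.7 and 318.7 CPM in WT and at 342.3, 348.9, 351.3 and 340.5 CPM in BAP1 KO. The lowest BAP1 KO library lay above the highest WT library. The log2 fold change was 0.095 ± 0.020, a rise to 106.8% of WT (edgeR adjusted p = 0.00017), on 22237 to 28638 counts per library. The exact permutation p was 0.029. Once the trends with GC content and gene length were removed in each library, a fit in which 65.2% of all tested genes passed, the change was 0.15, 1.62 times as large (edgeR adjusted p = 1e-12). Over all alternatives the adjusted p was 1e-12 to 1, the highest being the test against 25%.

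Bcl2l1 encodes BCL-XL, which guards mitochondria in many cell types, and by another splice site the short form BCL-XS. Counts per gene do not separate the forms, and GENCODE vM21 lists 9 transcripts of the gene. Bcl2l1 (Entrez 12048; chromosome 2, 152758732 to 152833803) stood at 201.4, 202.9, 199.9 and 203.8 CPM in WT and at 227.9, 219.2, 219.8 and 223.0 CPM in BAP1 KO. All BAP1 KO libraries lay above WT, with BAP1 KO replicate 1 the highest. The mean rose from 202.0 ± 1.7 to 222.5 ± 4.0 CPM (SD, n = 4 each), a log2 fold change of 0.14 ± 0.02 (edgeR adjusted p = 1.4e-06).

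Bcl2l2, which encodes the survival protein BCL-W, passed the test although the groups overlapped. Bcl2l2 (Entrez 12050; chromosome 14, 54883366 to 54890858) stood at 65.1, 59.1, 58.9 and 60.3 CPM in WT and at 65.0, 67.0, 63.7 and 63.9 CPM in BAP1 KO. WT replicate 1 lay within the BAP1 KO range, and the other WT libraries lay below it. On the log2 scale the change was 0.094 ± 0.031 (edgeR adjusted p = 0.0089), and by exact permutation the two-sided p was 0.114. Its exons overlap those of Gm20521, a protein-coding model on the same strand, over 594 bases.

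Bcl2a1b encodes a copy of A1, a survival protein made mainly by blood cells and induced by NF-kB. Bcl2a1b (Entrez 12045; chromosome 9, 89199273 to 89207838) stood at 6.17, 6.12, 6.29 and 6.18 CPM in WT and at 3.97, 3.98, 4.04 and 3.79 CPM in BAP1 KO. All BAP1 KO libraries lay below WT, and the spread within each genotype was narrow. The mean fell to 63.8% of WT, a log2 fold change of -0.65 ± 0.07 (edgeR adjusted p = 4.7e-10), on 275 to 520 counts per library. Of the 12 macrophage markers, the 6 that fell were Cd14 (-0.99), Fcgr1 (-0.45), Ptprc (-0.37), Itgam (-0.30), Mrc1 (-0.13) and C1qb (-0.07). The 5 that rose were Lyz2 (0.39), Adgre1 (0.16), Cd68 (0.14), C1qa (0.09) and Csf1r (0.05). The part of macrophages in the fall of Bcl2a1b was not tested.

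The value of Bcl2a1b is uncertain because the A1 gene has near-identical copies on chromosome 9. The first 120 coding bases of each copy show how few positions separate them (GENCODE vM21 transcripts). Capitals mark bases that differ from Bcl2a1b. The stretch lies at chr9:89199360-89199479 on the plus strand for Bcl2a1b, chr9:88957051-88957170 on the plus strand for Bcl2a1a, chr9:88731600-88731719 on the minus strand for Bcl2a1d and chr9:114330156-114330275 on the plus strand for Bcl2a1c.
Bcl2a1b: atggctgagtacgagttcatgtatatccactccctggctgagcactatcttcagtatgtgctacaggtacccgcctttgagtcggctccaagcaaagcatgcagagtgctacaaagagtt
Bcl2a1a: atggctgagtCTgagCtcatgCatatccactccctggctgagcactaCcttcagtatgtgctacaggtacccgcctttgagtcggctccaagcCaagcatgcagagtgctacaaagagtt
Bcl2a1d: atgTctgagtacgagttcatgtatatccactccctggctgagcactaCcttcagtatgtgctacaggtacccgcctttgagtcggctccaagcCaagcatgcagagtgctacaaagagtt
Bcl2a1c: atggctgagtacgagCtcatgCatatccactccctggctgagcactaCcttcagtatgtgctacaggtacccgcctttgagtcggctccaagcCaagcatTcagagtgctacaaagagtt
Over the whole coding sequence of 516 bases, Bcl2a1a differs from Bcl2a1b at 11 positions and Bcl2a1d at 6. Reads were 50 bases long, and per the file headers those that align uniquely were counted. Of the distinct 50-base windows in the Bcl2a1b transcript, 42.4% occur in no other locus of the GENCODE transcripts, against 31.0% for Bcl2a1a, 20.5% for Bcl2a1d and 89.6% for Bcl2a1c. For the other 8 members this share was 99.8 to 100%. The genome outside the transcripts was not searched. Summed over the 4 WT libraries, Bcl2a1b held 1869 counts, or 5.73 per unique window. Bcl2a1a held 34 (0.142 per window), Bcl2a1d 20 (0.120 per window) and Bcl2a1c 116 (0.328 per window). The uniquely aligning reads of this cluster thus came mostly from Bcl2a1b, also per unique window. In BAP1 KO the sums were 1189, 22, 15 and 75, in the same order of genes. The exons of Bcl2a1b also overlap those of the protein-coding model Gm29094, on the same strand, over 401 bases, 49.1% of its exon bases. Models that overlap a gene were not counted as another locus in the search of windows. Bcl2a1c fell, with a log2 fold change of -0.62 ± 0.26 (edgeR adjusted p = 0.039, and 0.021 to 0.23 over the alternatives). That call was lost without WT replicate 2 (-0.59), WT replicate 4 (-0.54), BAP1 KO replicate 3 (-0.56) or BAP1 KO replicate 4 (-0.45), with DESeq2, or when genes of low count were kept. Bcl2a1a and Bcl2a1d had too few counts to be tested.

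Bcl2l10, a divergent survival protein known from the oocyte, was close to undetected. Bcl2l10 (Entrez 12049; chromosome 9, 75347758 to 75351640) had 5, 6, 2 and 1 counts in the WT libraries and 2, 8, 5 and 0 counts in the BAP1 KO libraries. The groups overlapped, at most 0.10 CPM was reached, and no fold change is given at this depth.

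Bax, an effector that moves from the cytosol to mitochondria and a known p53 target, rose by 0.23 on the log2 scale, more than the other members in the edgeR test with TMM factors. With GC and length trends removed, Mcl1 had the larger rise, at 0.15 against 0.12 for Bax. Bax (Entrez 12028; chromosome 7, 45461695 to 45466903) stood at 131.5, 134.2, 141.0 and 144.5 CPM in WT and at 166.1, 159.0, 154.6 and 168.2 CPM in BAP1 KO. The spread within a genotype was wider than for most survival genes, yet the groups did not overlap. The mean rose from 137.8 ± 6.0 to 162.0 ± 6.3 CPM (SD, n = 4 each), to 117.5% of WT. On the log2 scale the change was 0.23 ± 0.03 (edgeR adjusted p = 8.2e-08), and 42.2% of all tested genes had a larger change. The value for Bax without these trends is 0.52 times that with them (edgeR adjusted p = 3e-08, with 1.4e-19 to 1 over all alternatives). Its exons overlap those of Gm45808, a protein-coding model on the same strand, over 192 bases.

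Bak1 encodes BAK, the effector that sits in the mitochondrial membrane at rest. Bak1 (Entrez 12018; chromosome 17, 27019812 to 27028627) stood at 120.4, 118.0, 117.8 and 118.9 CPM in WT and at 126.3, 118.9, 114.2 and 121.8 CPM in BAP1 KO. The BAP1 KO libraries spread to both sides of the WT libraries. On the log2 scale the change was 0.018 ± 0.026 (edgeR adjusted p = 0.57), and its sign turned without BAP1 KO replicate 1 and after removal of GC and length trends. Exons of Ggnbp1, on the opposite strand, overlap 25.5% of its exon bases. Ggnbp1 itself held 20 to 39 counts per library, against 8141 to 10028 for Bak1.

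Bok, an effector of the same fold whose protein is kept low by degradation at the endoplasmic reticulum, rose by a small amount. Bok (Entrez 51800; chromosome 1, 93685575 to 93695770) stood at 40.4, 40.5, 41.6 and 43.9 CPM in WT and at 47.5, 47.0, 44.1 and 47.7 CPM in BAP1 KO. The groups were separated only narrowly, WT replicate 4 being at 43.93 and BAP1 KO replicate 3 at 44.09 CPM. On the log2 scale the change was 0.16 ± 0.03 (edgeR adjusted p = 9.2e-05). After removal of GC and length trends it was 0.095, 0.58 times as large (adjusted p = 0.0014, with 3.6e-06 to 1 over all alternatives). WT replicate 4 was the highest WT library and BAP1 KO replicate 3 the lowest BAP1 KO library for both Bax and Bok.

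**Figure D2:**
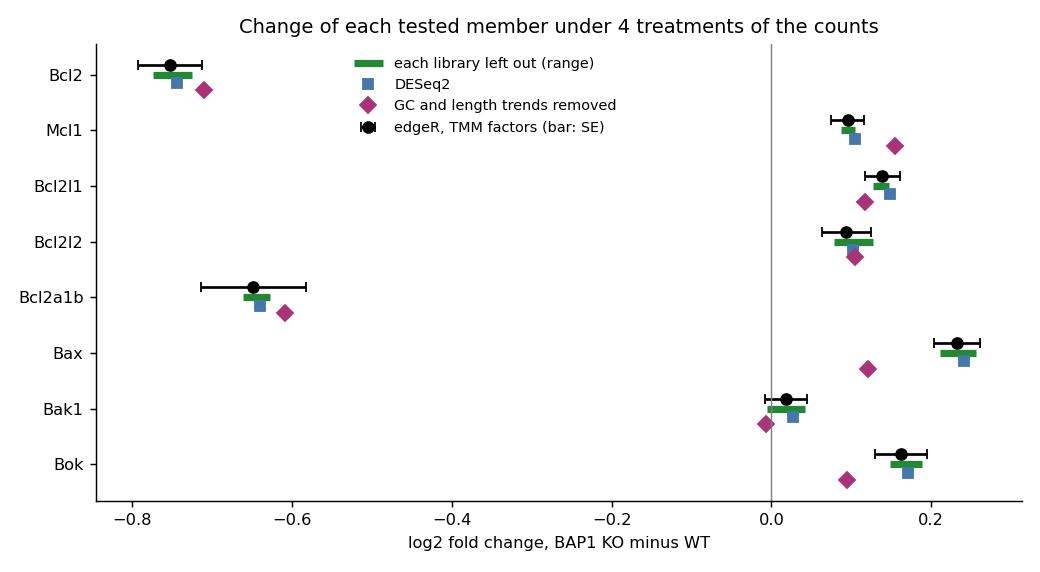
Log2 fold change (BAP1 KO minus WT) of the 8 tested genes. Black points are the edgeR values with their SE, green bars span the values with each library left out, blue squares are DESeq2 and purple diamonds follow removal of GC and length trends. Bcl2 and Bcl2a1b stay between -0.77 and -0.61, Bax moves from 0.23 to 0.12 after removal of the trends, and Bak1 lies on both sides of 0.

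Levels of different genes can be compared only per length, for which the authors' normalized RPKM (reads per kb of gene model and M reads, adjusted by a size factor) were used. The effector Bax was the most abundant member, at 156.4 ± 6.9 RPKM in WT and 185.3 ± 7.4 RPKM in BAP1 KO (SD, n = 4 each). Mcl1 followed at 82.7 and 89.1 RPKM, then Bak1 at 50.3 and 51.4 RPKM, Bcl2l1 at 33.6 and 37.3 RPKM, and Bok at 28.7 and 32.4 RPKM. Bcl2l2 stood at 13.05 and 14.0 RPKM, Bcl2a1b at 8.0 and 5.14 RPKM, and Bcl2 at 3.49 and 2.09 RPKM. Bcl2l10 was last, at 0.083 RPKM or less. By these values the order of the 9 genes was the same in both genotypes, and no neighbours in it overlapped between libraries of a genotype. The place of Bcl2a1b is uncertain. Its RPKM divides uniquely aligning reads by the length of the gene model, while 42.4% of its 50-base windows occur in no other locus. Its level is therefore likely too low, and if it would pass Bcl2l2 in either genotype was not tested. Thus Bcl2, the survival gene with the largest change, had the lowest level among the survival genes that were tested.

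The order at the top depends on the gene length used. The length implied by the deposited values was 4.44 times that of Bax for Mcl1 and 8.91 times for Bcl2. With the merged exon length of GENCODE vM21 instead, an alternative chosen after seeing the data, Mcl1 came before Bax in WT, at 169.4 against 156.4 on a scale set to the RPKM of Bax. In BAP1 KO, Bax stayed first on that scale, at 185.3 against 182.4 for Mcl1. The other places in the order were the same.

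**Figure D3:**
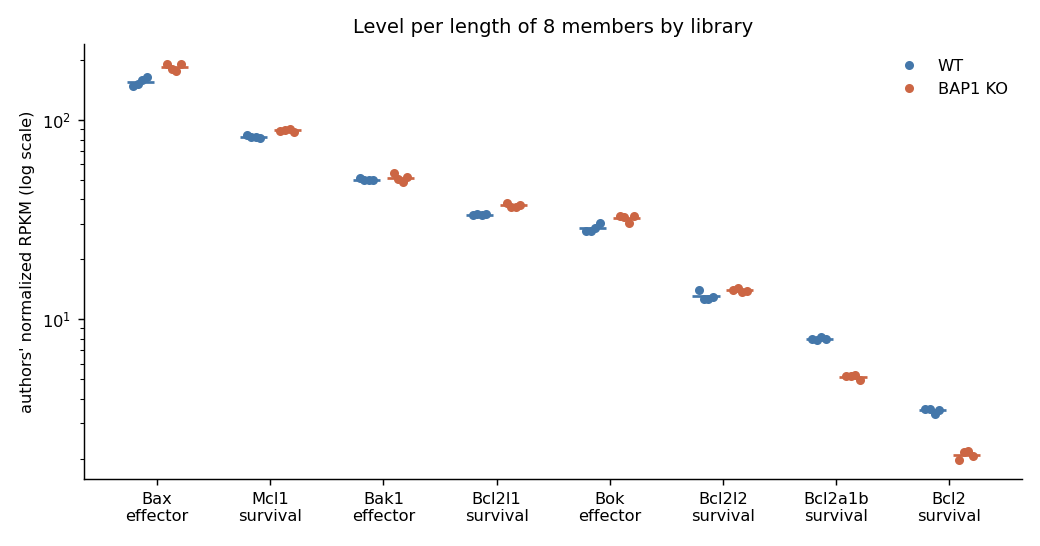
The authors' normalized RPKM (log axis) of the 8 tested members, ordered by their WT mean. Points are libraries and short lines are means of 4 libraries. Bax is the highest at 149 to 192 RPKM and Bcl2 the lowest at 1.97 to 3.56 RPKM, and the order is the same in WT and BAP1 KO. The place of Bcl2a1b is uncertain because reads shared with its copies were not counted.

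Added over genes, the survival and the effector RNAs both stood slightly higher in BAP1 KO. No test is given for sums over chosen genes. The 6 survival genes summed to 143.2, 140.5, 140.2 and 139.9 RPKM in WT and to 148.3, 148.3, 148.6 and 145.8 RPKM in BAP1 KO. The groups lay apart, with BAP1 KO at 104.8% of WT. This sum takes Bcl2a1b, which fell, at an RPKM that lacks the reads shared with its copies. A higher level of Bcl2a1b would make the rise of the sum smaller. The ratio of effector to survival RNA and the shares in the survival sum depend on it as well. The 3 effectors summed to 228.1, 229.9, 238.7 and 244.9 RPKM in WT. In BAP1 KO they summed to 278.2, 264.8, 256.2 and 277.2 RPKM, at 114.3% of WT. Bax made up 66.4% of this sum in WT and 68.9% in BAP1 KO. The ratio of effector to survival RNA was 1.67 ± 0.07 in WT and 1.82 ± 0.08 in BAP1 KO (SD, n = 4 each). Its ranges, 1.59 to 1.75 and 1.72 to 1.90, overlapped. The size of this ratio depends on the gene length used. With GENCODE exon lengths, again an alternative chosen after seeing the data, it was 0.978 ± 0.036 in WT and 1.04 ± 0.05 in BAP1 KO, with ranges of 0.939 to 1.02 and 0.986 to 1.08 that also overlapped. On that scale the sums stayed apart between genotypes, with BAP1 KO at 105.7% of WT for the survival genes and 112.6% for the effectors. Neither scale removes the trends with GC content and gene length within each library. Their removal took the log2 fold change from 0.23 to 0.12 for Bax and from 0.16 to 0.095 for Bok. For Mcl1 it went from 0.095 to 0.15, and the other tested members moved less. If the sums or their ratio would still differ between genotypes after that removal was not tested.

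The shares of Mcl1 and Bcl2l1 in the summed survival RNA were slightly higher in BAP1 KO, and that of Bcl2 was lower. Mcl1 made up 58.7 ± 0.32% of the summed survival RPKM in WT and 60.3 ± 0.50% in BAP1 KO (SD, n = 4 each). Bcl2l1 made up 23.9 ± 0.36% and 25.3 ± 0.58%. Bcl2 made up 2.47 ± 0.07% in WT and 1.41 ± 0.06% in BAP1 KO, and these ranges lay apart. The ratio of Bcl2 to Bax was 0.0223 ± 0.0015 in WT and 0.0113 ± 0.00093 in BAP1 KO, at 50.5% of WT. In the ratio of Mcl1 to Bax the groups overlapped, with 0.497 to 0.563 in WT and 0.456 to 0.512 in BAP1 KO.

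**Figure D4:**
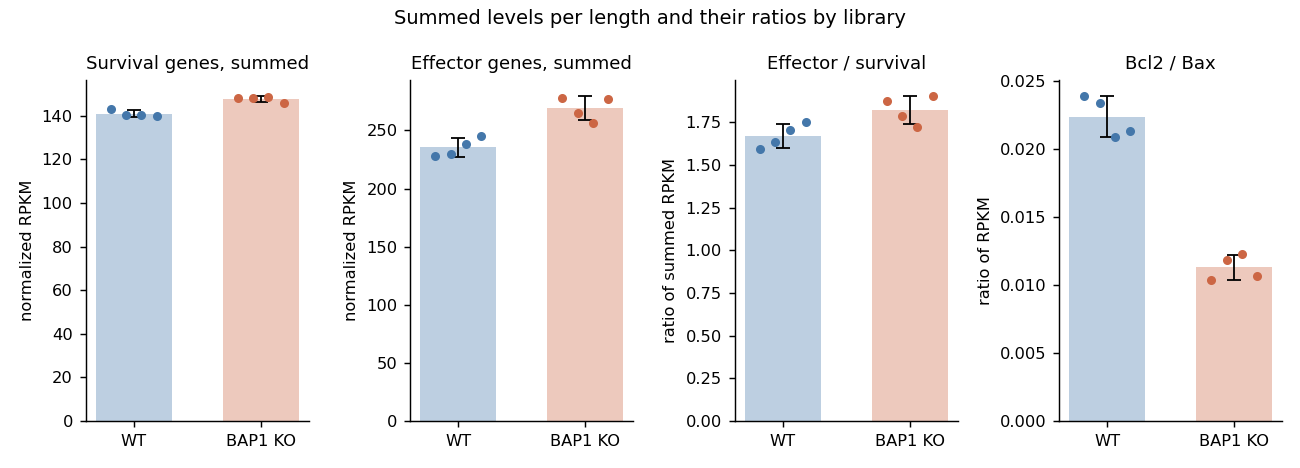
Summed normalized RPKM of the 6 survival genes and of the 3 effectors, the ratio of the sums, and the ratio of Bcl2 to Bax, by library. Points are libraries, bars are means and error bars are SD of 4 libraries. The ratio of sums overlaps between genotypes, at 1.59 to 1.75 and 1.72 to 1.90, while the ratio of Bcl2 to Bax lies apart.

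Genes that act on or with the members moved both ways, and their counts are to be read against the 29% of all tested genes that rose and the 32.1% that fell. Of the 7 tested BH3-only genes, whose proteins neutralize survival proteins or activate effectors, 3 rose, 3 fell and 1 missed the threshold; the median log2 fold change was -0.071. Bbc3, which encodes the p53 target PUMA, rose by 0.35 ± 0.06 from 13.4 to 17.1 CPM. Bmf, linked to the cytoskeleton, fell by 0.68 ± 0.07 from 6.12 to 3.83 CPM. Bik fell by 1.77 ± 0.23 from 0.95 to 0.28 CPM. Bcl2l11, which encodes BIM, had means of 24.5 (WT) and 23.3 CPM (edgeR adjusted p = 0.11).

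Among 4 other BCL2 homologues, 2 were tested. Bcl2l13, a mitochondrial protein known as a mitophagy receptor, had a log2 fold change of 0.070 ± 0.029 (edgeR adjusted p = 0.038, and 0.00085 to 1 over the alternatives). That call was lost without WT replicate 2 (0.075) or 3 (0.051), and without BAP1 KO replicate 1 (0.068), 2 (0.059) or 3 (0.069). It was also lost with upper quartile factors (0.061), with library totals alone (0.055), without a filter on low counts (0.067) and in the test against 25%. Bcl2l12 was at 6.45 and 6.32 CPM (edgeR adjusted p = 0.71). Bcl2l14 and Bcl2l15 had at most 16 counts in any library and were not tested.

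Of 10 mitochondrial partners and factors released after permeabilization, 3 rose, 2 fell and 5 missed the threshold; the median was 0.069. The outer membrane channel Vdac1 rose by 0.12 ± 0.02, and Mtch2, an outer membrane insertase that also serves as a receptor for BID, by 0.20 ± 0.03. Aifm1, which encodes apoptosis-inducing factor, fell by 0.18 ± 0.03. Cycs, the gene of cytochrome c, was at 0.53 and 0.57 CPM. Cycs has many processed copies in the mouse genome, and only uniquely aligning reads were counted.

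Of 9 enzymes that control the stability of MCL1, BAK1 or BOK protein, 3 rose, 3 fell and 3 missed the threshold; the median was 0.0086. Huwe1, the ubiquitin ligase MULE that marks MCL1 for degradation, rose from 210 to 287 CPM (0.45 ± 0.02, edgeR adjusted p = 4.7e-17). Fbxw7 and Btrc, substrate receptors of SCF ligases that can also target MCL1, fell by 0.37 ± 0.04 and 0.33 ± 0.04. Usp9x, a deubiquitinase that stabilizes MCL1, was at 215 and 217 CPM (edgeR adjusted p = 0.79). Protein was not measured.

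Of 11 partners of BCL2 or BCL-XL at the endoplasmic reticulum and in autophagy, 6 rose, 0 fell and 5 missed the threshold by edgeR, where 29% of all tested genes rose and 32.1% fell. Every fitted change of this list was above 0 in the main edgeR fit, the lowest being 0.0090 for Ambra1. In that fit, p without adjustment therefore could not yield a fall at any threshold. By DESeq2, 0 fell, but it used the same counts and is no independent check. Over the alternatives, the lowest fitted changes were below 0 for Bnip3l (-0.021), Itpr2 (-0.019) and Ambra1 (-0.0061). The median was 0.060. Tmbim6, BAX inhibitor 1, rose from 572 to 676 CPM (0.24 ± 0.02), and the calcium release channels Itpr3 and Itpr1 rose by 0.22 ± 0.03 and 0.11 ± 0.03. Of the 6 rises, 3 held under each of 17 alternatives, the test against 25% left aside. Becn1, the autophagy protein that BCL2 binds, was at 90.7 and 91.9 CPM (edgeR adjusted p = 0.52, and 3e-05 to 1 over the alternatives).

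Of 9 tested transcription factors known to act on these genes, 5 rose, 2 fell and 2 missed the threshold; the median was 0.082. Trp53, which can activate Bax and Bbc3, rose by 0.22 ± 0.03 to 111 CPM. The NF-kB subunits Rela and Nfkb1, which can activate the A1 genes and Bcl2l1, rose by 0.20 ± 0.03 and 0.14 ± 0.02. Myb was below 1 CPM in every library and was not tested.

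**Figure D5:**
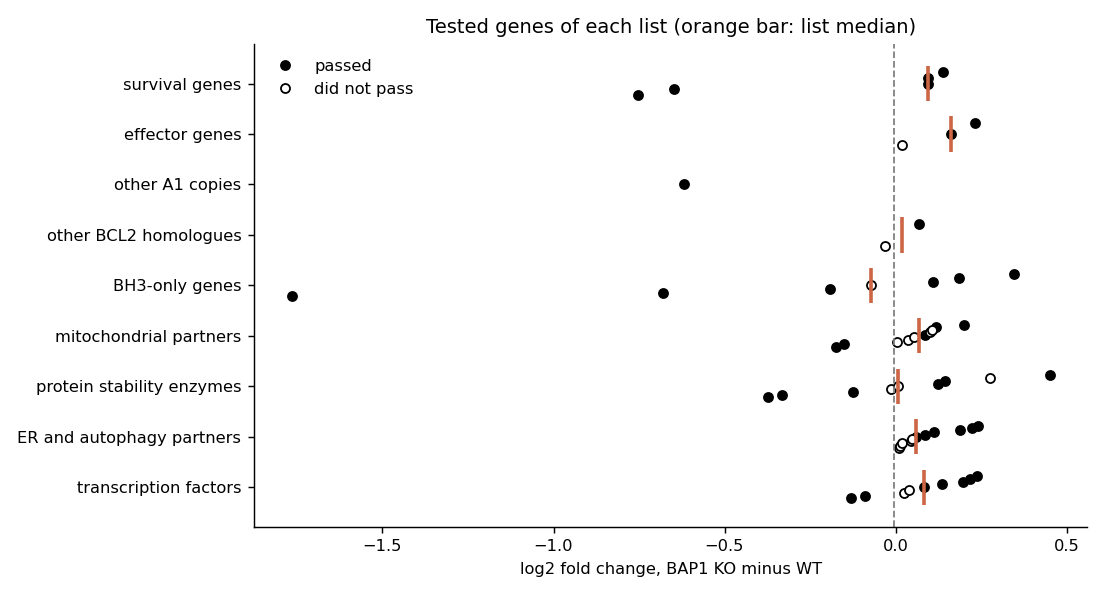
Log2 fold change (BAP1 KO minus WT) of each tested gene in the 9 lists. Filled points passed the test, open points did not, orange bars are list medians and the dashed line is the median of all tested genes. List medians of 2 or more genes lie between -0.07 and 0.16, with the largest falls in Bik, Bcl2, Bmf and Bcl2a1b.

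The genes whose pattern was most like that of Bcl2 over the 8 libraries were Amot, Lratd2 and Capn6, with Pearson r of 0.999, 0.998 and 0.998 on log2 CPM among 9288 genes of at least 10 CPM. Most like Bax were Tprgl, Aldh4a1 and Mrps28, with r of 0.995, 0.992 and 0.992. These values describe 2 genotypes of 4 libraries that share their depth and scaling. For Bcl2, 1477 of the genes had r above 0.95, and for Bax 461, so high values of r were common.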

How the data were processed

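Each library has 1 deposited table of counts, which per the file headers are reads aligning uniquely to a gene model. The authors' normalized RPKM stand beside them and, per the file headers, carry a size-factor adjustment. Per the labels' protocols, 0.5 µg of RNA went into TruSeq RNA v2 libraries, read as single ends of 50 bp. These state 30 M reads, while the deposited counts sum to 67.1 to 84.9 M per library. GSNAP and GRCm38 are named in the submitters' processing notes; version, annotation and strand setting are not stated in the sources used here. This kit does not mark strand. Reads with several alignments are missing from near-identical genes.

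RefSeq (GRCm38.p6) gave symbols for 31049 of 36528 identifiers. The main test was the quasi-likelihood F test of edgeR 4.0.16, run in R 4.3.3 on the deposited counts with TMM factors, filterByExpr and Benjamini-Hochberg adjustment over 16929 genes. Each SE is the absolute log2 fold change over the root of its F value. CPM use the TMM-adjusted totals. The script was checked on simulated counts in which only a small share of genes changed. That check does not cover the scaling in a comparison where most genes pass. Alternatives used DESeq2 1.42.0, limma 3.58.1, sva 3.50.0, other factors and filters, a test against a 1.25-fold change, removal of GC and length trends, and each library left out. GC content and length were known for 85.1% of tested genes. Members and lists were chosen with earlier results of these data known. From each list, all genes (lists of 4 or fewer) or up to 3 passing genes with the smallest adjusted p were named by rule. Bcl2l11, Usp9x, Becn1 and Cycs lie outside that rule, were chosen for their role and were named after their values were seen. For likeness, predicted models were left out. Genotypes come from the label of each sample, replicate numbers follow accession order, and the labels name no batch.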

Additional observations from a re-analysis of the deposited data

How the results depend on the processing

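Over 18 alternatives, 137 of 144 values of the 8 tested members kept their direction and their side of the threshold. In the test against a 25% rise or the equal fall on the log2 scale, 3110 genes and 2 members passed. The calls lost there were those of Mcl1 (0.095), Bcl2l1 (0.14), Bcl2l2 (0.094), Bax (0.23) and Bok (0.16), whose fitted changes are all below that size. Bak1, which passed under none of the 18, turned to -0.0062 after removal of GC and length trends and to -0.0055 without BAP1 KO replicate 1, in a range of -0.0055 to 0.042 with each library left out; the cause was not tested. Bcl2l12 turned to 0.014 without BAP1 KO replicate 1, in a range of -0.075 to 0.014. With each library left out in turn, 9822 to 10253 genes and 7 members passed. Without Bcl2a1b, the summed survival level changed by 0.10 (log2 ratio of BAP1 KO to WT) in place of 0.07, since a member that fell is left out. Over all settings the median of all genes lay between -0.0197 and 0.0187. TMM, RLE and upper quartile factors centre most genes near 0 by design, so this median is no check of the scaling. No paired analysis was possible because the labels give no replicate numbers. None of the 18 groups of 4 CPM values of the members held a library far from the others by Dixon's criterion. Depth limits Bcl2l10, Bcl2a1a and Bcl2a1d, with at most 11 counts in any library.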
